A study of Mus musculus with 10 samples.

Results

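Lactacystin binds and blocks the proteasome, and the late state of a neuronal culture under it was compared with control cultures of the same age. The comparison held the 5 arrays of 48 h, 3 of lactacystin and 2 of control, among the 10 arrays of the series. All groups were primary cultures of foetal cortex from Swiss Albino mice at gestation day 15 to 16, and treatment began on day 5 in vitro. The lactacystin group received 1 µM of the drug for 48 h in a serum-free medium called NB. For the control group the labels give the agent as control and the same time, and do not say whether it received DMSO, the solvent of the drug stock. Nor do they say if the replicates of a group came from different cultures, and if they did not, the p-values cover technical spread alone. Control replicate 1 and lactacystin replicate 3 were hybridised to the Affymetrix U74A design, and control replicate 2 and lactacystin replicates 1 and 2 to its revision U74Av2.

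The proteasome degrades proteins tagged with ubiquitin, and cells short of proteasome activity are known to make more chaperones, antioxidant enzymes and proteasome subunits. A cortical culture of this kind is rich in young excitatory and inhibitory neurons and also holds glia and dividing precursors. RNA from the whole culture was measured, so fewer cells of a type and less RNA per cell cannot be told apart.

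Values are scaled signals on a linear scale, with each array brought to the same trimmed mean. Changes are differences of log2(signal + 32), lactacystin minus control, adjusted for array design, and are followed by their standard errors. A gene is said to have risen or fallen where its adjusted p in the limma fit was under 0.05. Of 6984 probe sets tested, 473 rose (6.77%) and 249 fell (3.57%), or 10.3% in all, and 136 of the rises and 30 of the falls were at least 2-fold. Per gene, with the brightest probe set standing for its gene, 395 of 5541 rose (7.13%) and 205 fell (3.70%), which is 10.8% in either direction. The median change over all genes was 0.037. Scaling the arrays to a common median instead moved the median of all probe sets from 0.041 to -0.107, and turned the split to 286 higher and 637 lower.

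Array design was the largest difference among the 5 arrays. Of the variance over these arrays, 56.2% lay on a first principal component that separated the designs. The next component, with 27.8%, placed the controls at -13.7 and -24.1 and the lactacystin arrays at 9.49, 14.0 and 14.3. All 722 called probe sets changed in the same direction within U74A and within U74Av2, against 66.0% of all probe sets tested. The signals of the groups did not overlap for 642 of the 722, or 88.9%, where the figure over all probe sets was 26.5%. Both shares come from the same arrays that gave the calls, so they describe the calls and do not test them. Each control array is the only control of its design at 48 h: the calls numbered 232 without control replicate 1 and 209 without control replicate 2. Of 123 called genes followed through every omission of an array, 47 kept their call each time.

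**Figure D1:**
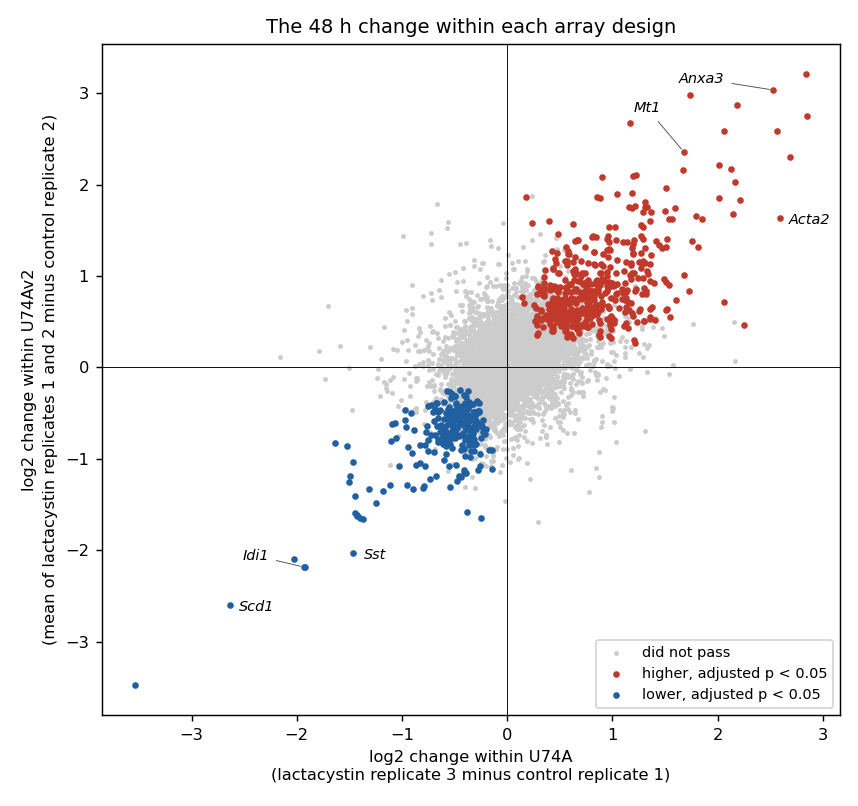
Log2 change of each probe set within U74A (horizontal axis, lactacystin replicate 3 minus control replicate 1) and within U74Av2 (vertical axis, mean of lactacystin replicates 1 and 2 minus control replicate 2). Each point is 1 of the 6984 probe sets, red for the 473 that rose and blue for the 249 that fell. All coloured points lie where both changes have the same sign.

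The proteasome's own genes were near control level at 48 h. None of the 14 subunits of its 20S core passed, and their changes ran from -0.15 to 0.25 with a median of 0.10. Nor did any of 16 subunits of the 19S regulator, the part that admits substrates to the core (median -0.015). Psmb2, a core subunit, read 1937 and 3191 in the controls and 3039, 2982 and 1568 under lactacystin. The groups overlapped, and each of the lowest readings was the U74A array of its group. At 24 h, against the controls of that time, all 14 core subunits and 12 of the regulator had risen, with medians of 0.89 and 0.79. Over all genes 8.66% rose and 6.68% fell at that time.

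In the list of cytosolic heat shock genes 1 of 14 passed, the mitochondrial co-chaperonin Hspe1 (0.34 ± 0.10, adjusted p = 0.0469), and it did not pass without control replicate 1 (adjusted p = 0.203), without control replicate 2 (0.216) or under median scaling. Hspa1a, the inducible Hsp70, whose probe set cannot be told apart with certainty from its near-identical copy Hspa1b, read 305 and 399 in the controls and 773, 1107 and 396 under lactacystin. The U74A lactacystin array lay within the control range, and the change of 0.74 ± 0.30 did not pass (adjusted p = 0.147). A probe set annotated to Hspa1b stood at -0.080 ± 0.40 and did not pass either (adjusted p = 0.937). Of 14 ER chaperone and unfolded protein response genes, 1 fell, the transcription factor gene Xbp1 (-0.66 ± 0.18, adjusted p = 0.0358). Its call was lost without control replicate 1 (adjusted p = 0.255) or control replicate 2 (0.0958).

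Within the ATF4 and amino acid stress list, 4 of 20 genes fell and 1 rose. Atf4, the transcription factor at the head of this response, read 2224 and 3666 in the controls and 1908, 1560 and 1281 under lactacystin. All lactacystin arrays were below both controls, a change of -0.99 ± 0.15 (adjusted p = 0.00225). The mitochondrial folate enzyme Mthfd2 fell by 0.86 on the log2 scale and asparagine synthetase, Asns, by 0.52, and both calls were lost without control replicate 1 (adjusted p = 0.106 and adjusted p = 0.116). The signals of Asns overlapped between the groups. Nars, a tRNA synthetase, fell (-0.48) and the serine synthesis enzyme Psat1 rose (0.52). Without control replicate 1 the list had 1 fall and no rise, and without control replicate 2 it had 3 falls and no rise. Atf3, a stress-induced partner of the AP-1 factors, did not pass at 0.91 ± 0.29 (adjusted p = 0.0655).

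All 3 measured metallothioneins, small cysteine-rich proteins that bind zinc and copper, rose. Mt1 read 1714 and 2282 in the controls and 10923, 12848 and 5552 under lactacystin, a rise of 2.13 ± 0.23 (adjusted p = 0.000335). Mt2 read 5486 and 4545 against 16091, 17951 and 11371, a rise of 1.57 ± 0.19 (adjusted p = 0.000475). In both genes no array overlapped, and the U74A lactacystin array was the lowest of its group. Mt3, the brain form, read 4842 and 6056 against 12490, 12340 and 9014 and rose by 0.98 ± 0.13 (adjusted p = 0.00132). All 3 calls held with either control array left out. At 24 h the change of Mt3 was 0.14 and did not pass, nor did the difference between the times (limma adjusted p = 0.0580).

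Metallothionein promoters are textbook targets of the metal-responsive factor Mtf1, so the promoter windows of Mt1 and Mt2 were read (RefSeq, GRCm38.p6, 250 bases before to 50 after the start). They are shown 5′ to 3′ on the gene's strand, at chr8:94178839-94179138, plus strand for Mt1 and chr8:94172368-94172667, plus strand for Mt2. Capitals mark matches to the core letters of the metal response element, TGCACNC or TGCGCNC, on either strand.
Mt1: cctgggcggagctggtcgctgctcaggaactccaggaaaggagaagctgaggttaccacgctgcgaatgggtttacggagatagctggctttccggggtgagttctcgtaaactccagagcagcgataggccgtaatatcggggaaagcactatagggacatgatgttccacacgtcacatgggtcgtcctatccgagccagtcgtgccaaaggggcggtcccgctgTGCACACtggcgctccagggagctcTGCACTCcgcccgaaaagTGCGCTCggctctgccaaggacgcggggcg
Mt2: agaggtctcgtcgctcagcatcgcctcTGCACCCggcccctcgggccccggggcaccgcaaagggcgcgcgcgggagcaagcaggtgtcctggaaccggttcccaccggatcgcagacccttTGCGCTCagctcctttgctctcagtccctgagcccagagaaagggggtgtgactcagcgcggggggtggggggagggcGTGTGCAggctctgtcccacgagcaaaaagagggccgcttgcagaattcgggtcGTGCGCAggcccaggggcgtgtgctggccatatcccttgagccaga
The Mt1 window held 3 matches and the Mt2 window 4, and the Mt3 window held 1. None of the matches shown overlapped another motif searched. Such a match is common, as 40.7% of the 4471 tested genes with a window held at least 1.

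Of 19 glutathione S-transferases and xenobiotic enzymes, 7 rose and 1 fell, with a median of 0.38. Ephx1, an epoxide hydrolase, read 194 and 118 in the controls and 939, 1217 and 992 under lactacystin (2.63 ± 0.25, adjusted p = 0.000171). Ptgr1, a reductase of prostaglandins and reactive aldehydes, read 98.4 and 81.5 against 673, 1107 and 402 (2.54 ± 0.35, adjusted p = 0.00137). Every lactacystin array exceeded both controls in each of these genes. Gsta4, which conjugates products of lipid peroxidation, and the microsomal transferase Mgst1 rose by 2.09 ± 0.30 and 1.56 ± 0.25, each just short of the threshold without control replicate 2 (adjusted p = 0.0501 for both). Cyp1b1, a cytochrome P450, rose by 1.24 ± 0.17 at 48 h, and at 24 h its change was 0.19 and did not pass. The difference between the times did not pass either (limma adjusted p = 0.0591). Gstt1 (0.91) and Gstm1 (0.64) rose and Mgst3 (-0.71) fell. The list had 5 rises and 1 fall without control replicate 1, and 4 rises and no fall without control replicate 2.

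NRF2, encoded by Nfe2l2, switches on many antioxidant genes and is itself degraded by the proteasome. Nfe2l2 read 297 and 174 in the controls and 585, 693 and 818 under lactacystin, with no overlap (1.58 ± 0.15, adjusted p = 0.000171). Among the 12 genes of the NRF2 and oxidative stress list only Nfe2l2 and Nqo1, a quinone reductase, rose. Nqo1 stood at 1.61 ± 0.33 (adjusted p = 0.0112), but at adjusted p = 0.0936 without control replicate 1 and 0.0918 without control replicate 2. Srxn1, which repairs oxidised peroxiredoxins, read 103 and 58.8 against 142, 605 and 127. Lactacystin replicate 2 alone stood far above the controls, and the change of 1.27 ± 0.51 did not pass (adjusted p = 0.148). At 24 h, 9 of these 12 genes had risen. NRF2 binds antioxidant response elements, and the letters TGACNNNGC, searched on both strands, were found in 5 of the 11 genes of this list with a promoter window and in 2 of 15 of the detoxifying enzyme list, against 16.3% of tested genes.

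Targets of p53, the transcription factor that answers DNA damage and other stress, were listed together with the Gadd45 family. Of these 12 genes 5 rose and 1 fell, with a median of 0.55. The list is called p53 targets below, and whether p53 acted on its genes was not tested. Gadd45g, a stress sensor, read 247 and 215 in the controls and 630, 647 and 642 under lactacystin (1.35 ± 0.14, adjusted p = 0.000309). Its 3 lactacystin arrays lay close together and far above the controls, and its call held with either control array left out. The rises of Perp (0.93), Gadd45a (0.85), Btg2 (0.58) and the cell cycle inhibitor Cdkn1a (0.60) were smaller. Without control replicate 2 these had adjusted p of 0.0958 for Perp, 0.204 for Gadd45a, 0.219 for Btg2 and 0.328 for Cdkn1a, and without control replicate 1 Perp (0.0796) and Btg2 (0.0606) also lost their calls. The list then had 1 and 3 rises. The other probe set of Cdkn1a stood at 0.32 and did not pass. The polo-like kinase Plk2 fell (-0.36).

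No gene of the cell death machinery passed. The 11 genes that promote death, among them caspases, Apaf1 and BH3 proteins, ran from -0.35 (Bid) to 0.43 (Bcl2l11). Likewise, none of the 8 death-inhibiting genes passed (median 0.023).

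Of 15 immediate early and AP-1 genes 3 rose: Fosl1, Egr1 and Btg2. Fos itself was not among the 15. A Fos probe set on U74Av2 alone read 140 in control replicate 2 and 386 and 363 in lactacystin replicates 1 and 2. Fosl1, a Fos family member, read 14.6 and 10.6 in the controls and 33.0, 76.6 and 77.9 under lactacystin, so that even the higher group was dim (1.08 ± 0.24, adjusted p = 0.0161). No member of this list kept its call without control replicate 1 or without control replicate 2, where Fosl1 had adjusted p = 0.0989 and 0.108 and Egr1 0.296 and 0.0935.

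Annexins bind membrane lipids in the presence of calcium, and 5 of 7 rose with a median of 1.45. Anxa3, the largest rise among genes represented by their brightest probe set, read 81.2 and 43.8 in the controls and 496, 699 and 619 under lactacystin (2.89 ± 0.31, adjusted p = 0.000335). Anxa5, widely used as a probe of dying cells because its protein binds exposed phosphatidylserine, read 571 and 416 against 1179, 1135 and 1695 (1.45 ± 0.11, adjusted p = 3.94e-05). Neither gene showed any overlap, and neither lost its call without a control array. Anxa2 rose by 1.54, Anxa1 by 1.45 and Anxa4 by 1.09, of which Anxa1 did not pass without control replicate 1 (adjusted p = 0.0871). Anxa6 (0.69) and Anxa7 (0.29) did not pass.

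Of 5 galectins on both designs, secreted lectins that bind galactosides, 2 were bright enough to be tested, and both rose. Lgals1 read 405 and 504 in the controls and 2855, 3551 and 2558 under lactacystin (2.63 ± 0.24, adjusted p = 0.000128). Lgals3 read 65.1 and 38.9 against 248, 613 and 374 (2.47 ± 0.44, adjusted p = 0.00534). Its mean in these controls, 52.0, was under the limit of 54.8 below which probe sets were left out. The lactacystin arrays carried it past that limit. The groups were apart in both genes, but Lgals3 had adjusted p = 0.0701 without control replicate 1 and 0.0526 without control replicate 2. Among the calcium-binding S100 proteins 3 of 6 rose: S100a6 (1.65 ± 0.25), the Anxa2 partner S100a10 (1.46 ± 0.22) and S100a13 (0.62 ± 0.13). Without control replicate 2 only S100a6 passed, with S100a10 at adjusted p = 0.0624 and S100a13 at 0.151.

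**Figure D2:**
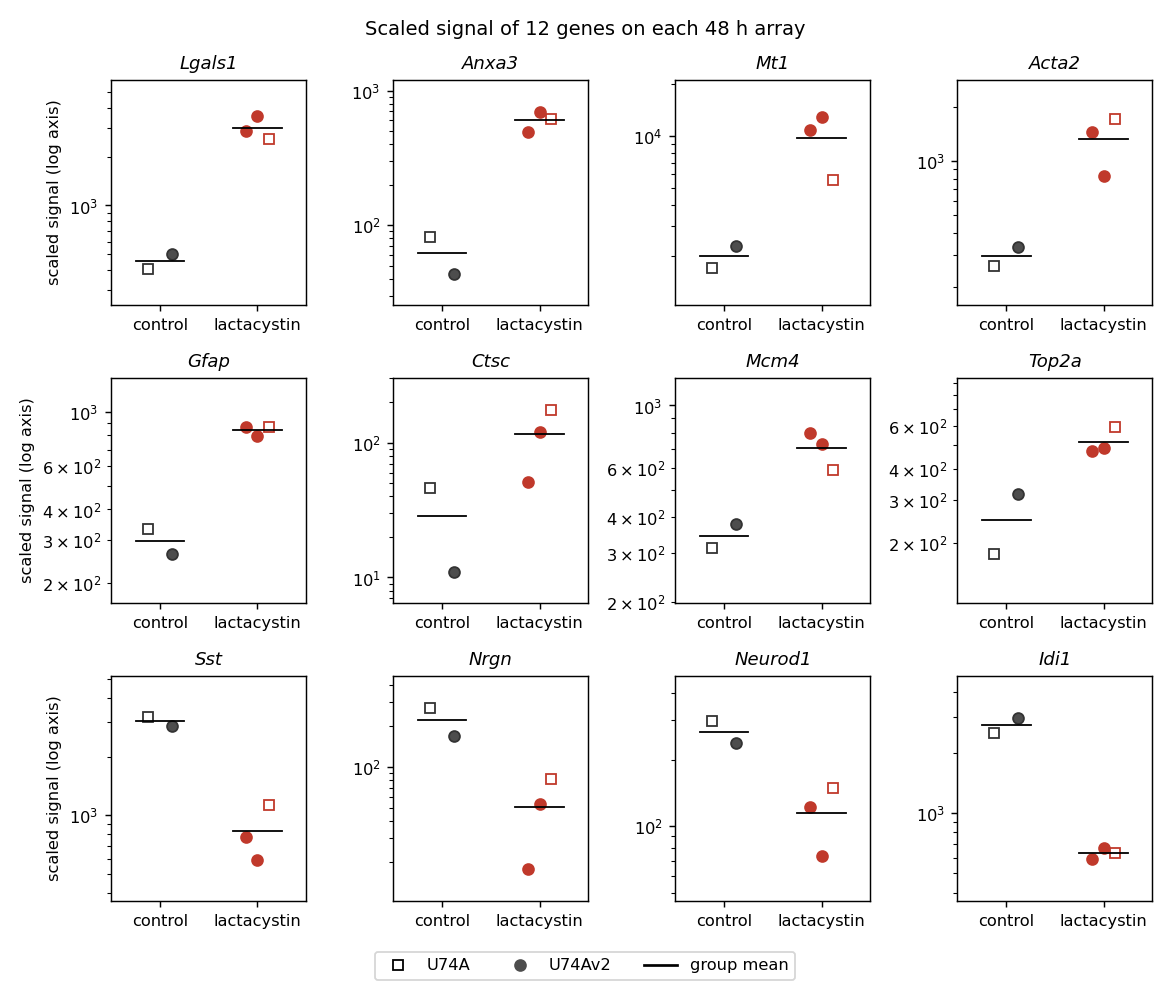
Scaled signal (vertical log axes) of 12 genes on each of the 5 arrays of 48 h, by group. Squares are U74A arrays, circles U74Av2 arrays and lines the group means. In every panel the 3 lactacystin arrays lie on the same side of both controls, as in Lgals1 at 2558 to 3551 against 405 and 504, or Sst at 591 to 1136 against 2870 and 3189.

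Of 19 actin cytoskeleton and contractile genes 10 rose and none fell, with a median of 0.52. Acta2, smooth muscle actin, read 259 and 333 in the controls and 1455, 831 and 1725 under lactacystin (2.10 ± 0.33, adjusted p = 0.00247). Tagln, an actin-binding protein of smooth muscle, read 261 and 191 against 1178, 654 and 1285 (2.12 ± 0.27, adjusted p = 0.000679). Lactacystin replicate 2 was the lowest of its group in both genes and still above the controls. The myosin light chain Myl9 (1.09), the focal adhesion protein Vcl (1.01) and the calponin Cnn2 (0.99) also rose, with Actn1 (0.89), Ezr (0.81), Myh9 (0.62), Lmna (0.52) and Actn4 (0.49). The list had 5 rises without control replicate 1 and 4 without control replicate 2. Among these, Myl9 lost its call with either left out (adjusted p = 0.105 and 0.104), as did Cnn2 (0.214 and 0.135), and Vcl did without control replicate 2 (0.114).

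Serum response factor, which controls many actin genes, binds the CArG box, here CC, then 6 bases that are A or T, then GG. Of the 9 risen actin genes with a RefSeq promoter window, 3 held it (Myl9, Vcl and Cnn2), as did 5 of 16 in the whole list, where the share over the tested genes was 1.88%. It was found in 1 of 11 immediate early and AP-1 genes with a window. The window of Vcl (chr14:20929148-20929447, plus strand) is shown as the example, with the box in capitals.
Vcl: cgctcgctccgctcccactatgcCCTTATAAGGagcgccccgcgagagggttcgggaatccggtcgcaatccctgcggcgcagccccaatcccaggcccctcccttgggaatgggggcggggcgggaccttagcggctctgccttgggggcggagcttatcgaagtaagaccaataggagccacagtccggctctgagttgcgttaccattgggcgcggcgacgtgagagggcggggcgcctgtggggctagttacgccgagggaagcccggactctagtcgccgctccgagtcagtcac
The box is a palindrome and reads the same on both strands. The windows of the 7 CCN and growth factor genes that had one held none.

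Of 14 CCN and growth factor response genes 4 rose and none fell, with a median of 0.51. Ccn2, a matricellular protein, read 11.99 and 65.2 in the controls and 493, 408 and 251 under lactacystin (2.51 ± 0.27, adjusted p = 0.000328). Its relative Ccn1 rose by 1.26 ± 0.19 and the plasminogen activator Plat by 1.16 ± 0.15, and the calls of all 3 held with either control array left out. Igfbp2, a binding protein of insulin-like growth factors, rose by 0.89 ± 0.19, with adjusted p = 0.104 without control replicate 1 and 0.111 without control replicate 2.

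In the extracellular matrix list 5 of 28 genes rose and none fell, with a median of 0.18 against 0.037 over all genes. Sparc, a secreted collagen-binding protein, read 380 and 656 in the controls and 2415, 2491 and 1625 under lactacystin (1.96 ± 0.16, adjusted p = 5.60e-05). Serpinh1, the collagen chaperone Hsp47, read 512 and 395 against 1297, 2067 and 1515 (1.78 ± 0.19, adjusted p = 0.000328). Both were well separated from the controls, and they were the only members called without control replicate 1 or without control replicate 2. The collagens Col5a2 (1.20) and Col18a1 (1.18) and the laminin Lamb2 (0.66) had adjusted p of 0.148, 0.142 and 0.0766 without control replicate 1, and of 0.0774, 0.0524 and 0.244 without control replicate 2. Col1a1, the main fibrillar collagen, did not pass (0.40 ± 0.18).

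Integrins and adhesion proteins connect the actin cytoskeleton to matrix and to other cells, and 6 of 14 of them rose. Itgav, the alpha-V integrin, read 920 and 893 in the controls and 2264, 2573 and 1802 under lactacystin (1.26 ± 0.18, adjusted p = 0.00172). Of its other probe sets 1 rose (0.84) and 1 did not pass (-0.079). Vcam1 read 390 and 424 against 877, 843 and 920 (1.09 ± 0.15, adjusted p = 0.00111), though its other probe set did not pass (0.31). The groups lay apart for both. Cd151 (0.93), Itga6 (0.85), Cd81 (0.62) and Itgb1 (0.46) rose as well. Without control replicate 2 the adjusted p of Cd151 was 0.167 and that of Cd81 0.276, and without control replicate 1 that of Itga6 was 0.159 and that of Cd81 0.0875, and Itgb1 lost its call in both cases, which left 3 calls each time.

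Genes of the cell division cycle were higher at 48 h. Of 28 DNA replication genes 11 rose, and of 38 mitosis and cyclin genes 15 rose, with no fall in either list and medians of 0.48 and 0.53. At 24 h none of the replication genes and 2 of the mitosis genes had risen. Mcm4, a subunit of the replicative helicase, read 311 and 378 in the controls and 798, 727 and 588 under lactacystin (0.91 ± 0.12, adjusted p = 0.000768), with no overlap. Pcna, the sliding clamp of DNA polymerase, read 1161 and 1800 against 2699, 2544 and 2314 (0.75 ± 0.14, adjusted p = 0.00779). In the controls of 24 h Mcm4 read 455 and 538 and Pcna 1940 and 2229, above their controls of 48 h. The controls of Mcm3 overlapped between the times, at 201 and 139 and then 106 and 143. The part of such differences between the controls in the contrast of the times was not tested. By limma's test of the effect at 48 h against that at 24 h, Mcm4 passed (adjusted p = 0.0442) and Pcna did not (0.100). Mcm3 (0.98), Uhrf1 (0.88), Cdt1 (0.83), Pola1 (0.75), Mcm5 (0.74), Rpa1 (0.60), Rrm1 (0.57), Pola2 (0.56) and Rrm2 (0.56) rose too.

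In mitosis, Ect2, which drives cytokinesis, read 187 and 193 in the controls and 349, 391 and 692 under lactacystin (1.25 ± 0.21, adjusted p = 0.00408). Top2a, a topoisomerase of dividing cells, read 181 and 318 against 474, 488 and 592 (0.99 ± 0.19, adjusted p = 0.00792). The proliferation marker Mki67 read 291 and 413 against 694, 533 and 821 (0.89 ± 0.19, adjusted p = 0.0124). No array overlapped in these genes, and in each the highest reading was the U74A lactacystin array. In Top2a and Mki67 the lower control was the U74A array, while the 2 controls of Ect2 were nearly equal. The difference from the effect at 24 h did not pass in Ect2 (limma adjusted p = 0.111), Top2a (0.0801) or Mki67 (0.0850). The remaining rises were those of Hmgb2 (1.08), Bub1 (0.86), Cks2, Kif23, Smc4, Ccnb2, Cdk1, Smc2, Aurka, Cdc20, Aurkb and Kif4, from 0.61 to 0.85 in the last 10.

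The size of the mitotic rise differed between the array designs, with list medians of 0.76 within U74A and 0.29 within U74Av2. For replication the medians were 0.57 and 0.43. Without control replicate 1, the U74A control, only 2 mitosis genes and 2 replication genes passed, while without control replicate 2 the numbers were 16 and 3. In the first case Top2a had adjusted p = 0.0876, Mki67 0.136, Mcm3 0.0947 and Pcna 0.0989. Mcm4 and Ect2 kept their calls in both.

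Many promoters of mitotic genes carry the CCAAT box, which the factor NF-Y binds. All 13 risen mitosis genes with a RefSeq window held CCAAT on one or other strand, as did 23 of 30 in the whole list, against 42.9% of the tested genes. Top2a (chr11:99024140-99024439, minus strand) and Cdk1 (chr10:69352863-69353162, minus strand) are shown on the gene's strand, with each box in capitals, where ATTGG is the box on the opposite strand.
Top2a: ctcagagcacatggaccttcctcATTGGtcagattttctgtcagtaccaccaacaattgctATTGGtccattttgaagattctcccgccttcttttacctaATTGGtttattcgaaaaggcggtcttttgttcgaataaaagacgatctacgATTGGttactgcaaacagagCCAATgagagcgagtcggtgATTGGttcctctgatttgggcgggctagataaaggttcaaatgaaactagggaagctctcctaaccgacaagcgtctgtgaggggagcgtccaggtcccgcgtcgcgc
Cdk1: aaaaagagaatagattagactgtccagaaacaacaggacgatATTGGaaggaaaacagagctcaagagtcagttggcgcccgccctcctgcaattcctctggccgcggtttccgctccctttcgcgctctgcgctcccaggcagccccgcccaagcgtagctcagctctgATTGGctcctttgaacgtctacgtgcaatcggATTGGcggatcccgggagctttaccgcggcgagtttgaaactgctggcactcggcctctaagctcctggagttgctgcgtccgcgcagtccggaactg
The Top2a window held 6 boxes and that of Cdk1 held 3.

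Lipid synthesis genes were lower. Of 13 cholesterol synthesis genes 10 fell and none rose, with a median of -1.24, and 9 fell without control replicate 1 and 9 without control replicate 2. Fdps, farnesyl diphosphate synthase, read 8196 and 11513 in the controls and 2375, 2636 and 2146 under lactacystin (-2.10 ± 0.12, adjusted p = 1.11e-05, the smallest among these genes). Idi1, which makes the 5-carbon building blocks interconvertible, read 2502 and 2971 against 590, 671 and 633 (-2.10 ± 0.14, adjusted p = 1.53e-05). The lactacystin arrays of both genes lay within a narrow range far under the controls. Later steps fell as well: Dhcr7 by 1.60 on the log2 scale, Fdft1 by 1.55, Cyp51 by 1.46, Nsdhl by 1.41, Sqle by 1.24, Sc5d by 1.04, Tm7sf2 by 0.93 and the early enzyme Hmgcs1 by 0.90. Hsd17b7 (-0.57), Mvk (-0.30) and Ebp (-0.13) did not pass.

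Sterol genes are controlled by SREBP factors, which act together with NF-Y. CCAAT was present in all 7 fallen genes with a window, and in 10 of 10 of the list, against 42.9% of tested genes. TCACNCCAC, the letters of the classical sterol regulatory element, was found in 1 of the 10, Hmgcs1, against 1.77% of tested genes, and in none of the 9 fatty acid synthesis and desaturation genes with a window. Hmgcs1 (chr13:119690101-119690400, plus strand) and Idi1 (chr13:8885356-8885655, plus strand) are shown with the CCAAT boxes, and in Hmgcs1 also the sterol element TCACCCCAC, in capitals.
Hmgcs1: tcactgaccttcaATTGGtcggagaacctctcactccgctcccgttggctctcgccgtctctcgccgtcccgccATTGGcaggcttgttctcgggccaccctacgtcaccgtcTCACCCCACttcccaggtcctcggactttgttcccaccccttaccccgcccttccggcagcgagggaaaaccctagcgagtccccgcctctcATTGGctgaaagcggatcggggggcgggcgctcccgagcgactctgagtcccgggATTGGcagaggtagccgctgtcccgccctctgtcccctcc
Idi1: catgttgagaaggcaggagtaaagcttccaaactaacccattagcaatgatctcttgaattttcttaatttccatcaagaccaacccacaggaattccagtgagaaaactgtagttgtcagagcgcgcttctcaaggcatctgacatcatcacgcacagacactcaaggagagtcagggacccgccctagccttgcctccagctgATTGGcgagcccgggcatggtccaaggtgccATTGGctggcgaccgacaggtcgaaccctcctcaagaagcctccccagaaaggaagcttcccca

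Of 11 genes of fatty acid synthesis and desaturation 5 fell and none rose, and the other 6 left the list median at -0.16. Scd1, a desaturase that makes oleate, read 3700 and 2595 in the controls and 243, 650 and 569 under lactacystin (-2.64 ± 0.30, adjusted p = 0.000389), and its other probe set fell by 3.54 on the log2 scale. Elovl6, which elongates fatty acids, read 1230 and 1586 against 653, 612 and 619 (-1.15 ± 0.13, adjusted p = 0.000367). Neither gene overlapped between the groups. Acsl4 (-1.01), fatty acid synthase, Fasn (-0.97), and the brain desaturase Scd2 (-0.53) completed the falls, where Fasn had adjusted p = 0.108 without control replicate 2 and Scd2 0.0989 without control replicate 1. Acadl, which by contrast breaks down long-chain fatty acids in mitochondria, read 132 and 113 against 470, 798 and 490 and rose by 1.99 ± 0.23 (adjusted p = 0.000475).

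**Figure D3:**
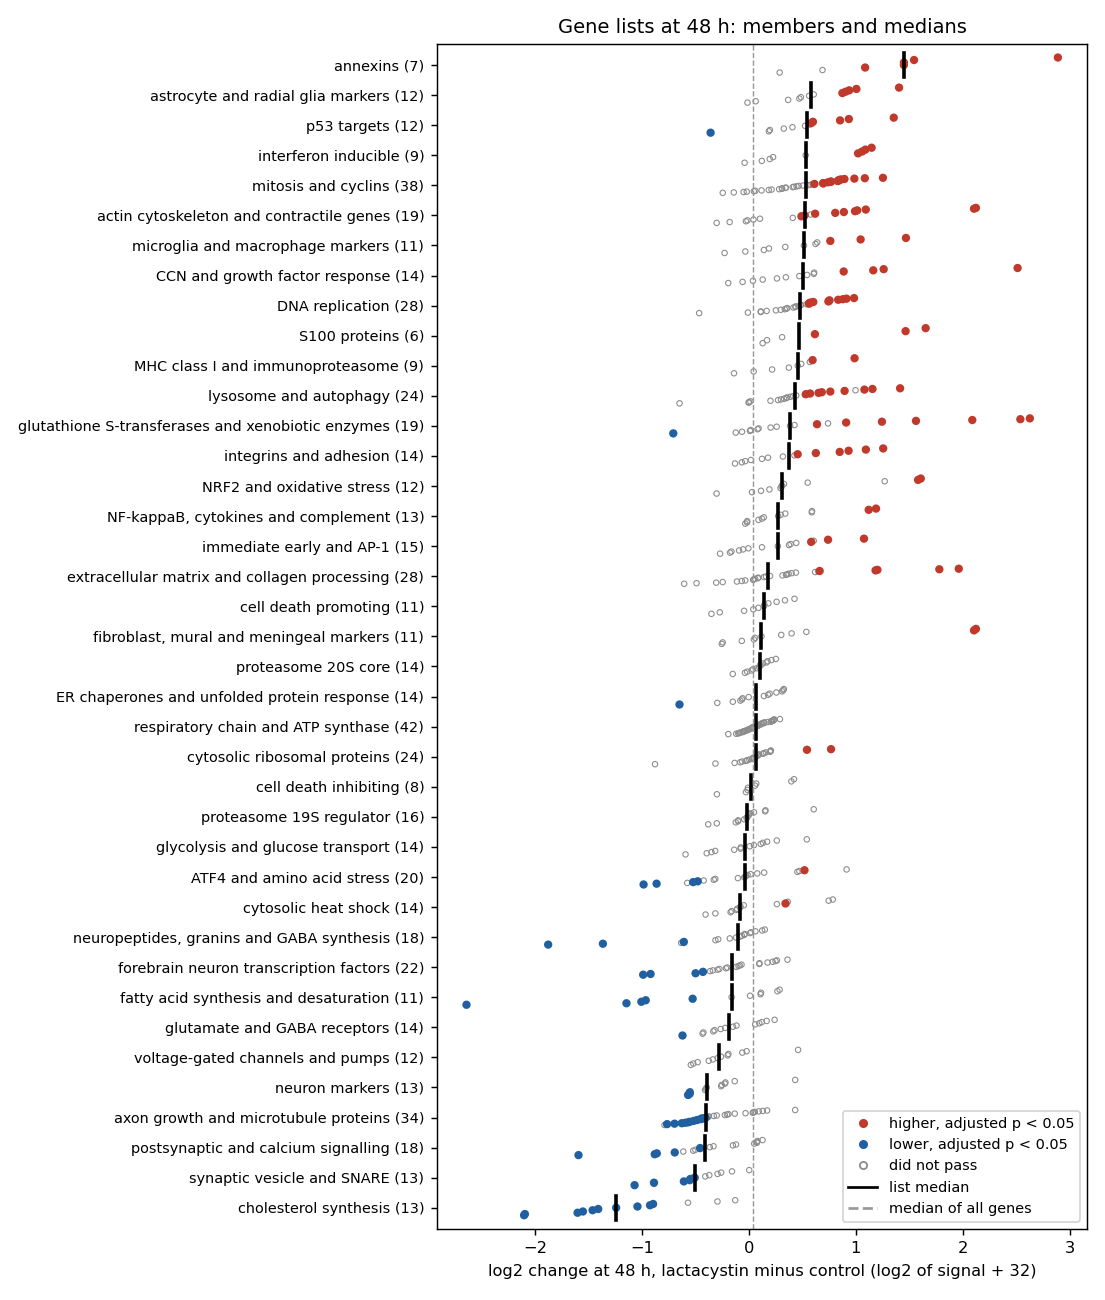
Log2 change at 48 h (horizontal axis) of each tested member of the gene lists with more than 3 tested members, with the number of members in parentheses. Red circles rose, blue circles fell, open circles did not pass, black bars are list medians and the dashed line is the median of all genes at 0.037. Annexins (median 1.45) lie at the top and cholesterol synthesis (median -1.24) at the bottom.

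Of 24 lysosome and autophagy genes 9 rose and none fell, with a median of 0.43. Lamp2, a membrane protein of the lysosome, read 643 and 674 in the controls and 1627, 1776 and 1284 under lactacystin (1.15 ± 0.14, adjusted p = 0.000480), with no overlap, and its other probe set rose by 1.27. The protease Ctsd read 2371 and 1637 against 3258, 4818 and 4226 (1.08 ± 0.17, adjusted p = 0.00238). Ctsc (1.41), Grn (0.89), Ctss (0.76), Hexa (0.68), Asah1 (0.65), Ctsa (0.57) and Man2b1 (0.53) also rose. The list had 4 rises without control replicate 1 and 1, Lamp2, without control replicate 2, where Ctsd had adjusted p = 0.0628 and Grn 0.0747.

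Immune genes gave a small set of rises. Csf1, the growth factor of microglia and macrophages, read 353 and 229 in the controls and 519, 599 and 761 under lactacystin (1.12 ± 0.14, adjusted p = 0.000737). Tnfrsf1a, a receptor of tumour necrosis factor, read 147 and 116 against 278, 385 and 320 (1.19 ± 0.20, adjusted p = 0.00339). Both stood apart from the controls, kept their calls with either control left out, and were the 2 risen among 13 genes of NF-kappaB, cytokines and complement. Of 9 MHC class I and immunoproteasome genes, B2m (0.99) and Tapbp (0.59) rose, and neither did without control replicate 1 (adjusted p = 0.0614 and 0.145) or control replicate 2 (0.0624 and 0.0537). The other probe set of Tapbp stood at 0.33 and did not pass. Of 25 interferon-inducible genes on both designs, 9 were bright enough to be tested. Of these 4 rose, Gbp3 (1.15), Ifi202b (1.09), Ifit2 (1.06) and Ifi30 (1.02), and 1 did when either control was left out. The signals of the 4 were low, with Gbp3 at 58.8 and 46.8 in the controls and 124, 164 and 167 under lactacystin. Ifi202b read 18.9 and 1.92 in the controls, and only its lactacystin arrays brought it past the filter on dim probe sets. The groups overlapped in Ifi30.

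Of 13 synaptic vesicle and SNARE genes 6 fell (median -0.51), of 18 postsynaptic and calcium signalling genes 5 (median -0.41), and of 34 axon growth and microtubule genes 12 (median -0.40), and none rose. In each of these lists the calls rested on both control arrays: they numbered 1, 2 and 5 without control replicate 1, and 0, 1 and 1 without control replicate 2. The medians were negative within both designs and smaller within U74A, at -0.25, -0.26 and -0.32, than within U74Av2, at -0.60, -0.55 and -0.41. The difference between the designs was not tested.

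Nrgn, neurogranin, which holds calmodulin in dendritic spines, read 272 and 168 in the controls and 17.7, 52.96 and 81.3 under lactacystin (-1.60 ± 0.28, adjusted p = 0.00514), and had adjusted p = 0.0680 without control replicate 1. Slc32a1, the vesicular transporter of GABA, read 1846 and 1599 against 485, 497 and 1549. Lactacystin replicate 3, on U74A, was close to the controls and the other pair far below, so that the change was -0.25 within U74A and -1.64 within U74Av2 (-1.07 ± 0.25, adjusted p = 0.0189, and 0.318 without control replicate 2). Vsnl1, a calcium sensor, read 2512 and 1468 against 717, 648 and 1701, where the U74A lactacystin array lay above the U74Av2 control (-0.88 ± 0.15, adjusted p = 0.00489). Stx1a (-0.89), Calb1 (-0.86), Prkcb (-0.70), Cplx2 (-0.61), Snap25 (-0.55), Vamp2 (-0.55), Dnm1 (-0.51) and Prkce (-0.46) fell. The groups overlapped in Stx1a and Calb1, and the other probe set of Prkcb stood at -0.36 and did not pass. Prkcb and Vsnl1 kept their calls without control replicate 1, but not without control replicate 2 (adjusted p = 0.0958 and 0.0858), and Stx1a, Calb1, Cplx2 and Snap25 lost theirs with either left out, at 0.0772 to 0.371.

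In the axon and its microtubules, Stmn2, a tubulin-binding protein of growing axons, read 14356 and 13510 in the controls and 7943, 8183 and 11257 under lactacystin (-0.57 ± 0.11, adjusted p = 0.00681). Gap43, a growth cone protein, read 8408 and 6954 against 4288, 4610 and 6063 (-0.56 ± 0.09, adjusted p = 0.00345). The groups did not overlap, and lactacystin replicate 3 was the nearest to the controls in both. Without control replicate 2 their adjusted p was 0.154 and 0.0888. Stmn4 (-0.77), the axon initial segment protein Ank3 (-0.70), Tubb4a (-0.63), Dpysl4 (-0.60), Ina (-0.52), Ncam1 (-0.49), Mapt (-0.45), Kif3c (-0.45), Crmp1 (-0.43) and Dync1i1 (-0.41) fell as well. Ank3 had adjusted p = 0.392 without control replicate 2, and Stmn4 and Tubb4a lost their calls with either control left out (0.0740 to 0.156). The other probe set of Ank3 stood at -0.49 and did not pass.

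Neuropeptides held some of the largest neuronal falls, though only 3 of 18 genes of that list fell. Sst, somatostatin of a class of inhibitory neurons, read 3189 and 2870 in the controls and 773, 591 and 1136 under lactacystin (-1.88 ± 0.27, adjusted p = 0.00164). Npy, a peptide of overlapping inhibitory neurons, read 1519 and 871 against 306, 349 and 591 (-1.37 ± 0.18, adjusted p = 0.00106). Both groups were apart and both calls held with either control left out. Cck fell by 0.61 on the log2 scale, with adjusted p = 0.0926 without control replicate 1 and 0.177 without control replicate 2. At 24 h Npy was at -1.52 and Sst at -0.31, and Sst did not pass then. The difference of Sst between the times did not pass (limma adjusted p = 0.0709).

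Of 22 forebrain transcription factor genes 4 fell, none without control replicate 1 or without control replicate 2. Neurod1, a factor of neuronal differentiation, read 297 and 237 in the controls and 122, 73.8 and 149 under lactacystin (-0.99 ± 0.21, adjusted p = 0.0119, and 0.0740 and 0.126 with either control left out). Mef2c, an activity-regulated factor, fell by 0.92 on the log2 scale, and 2 of its other 3 probe sets fell too (-0.89 and -0.86), while the third did not pass (-0.42). Neurod2 (-0.50) and Neurod6 (-0.43) had adjusted p of 0.289 and 0.226 without control replicate 1, and the groups overlapped in Neurod2. Of 14 glutamate and GABA receptor genes 1 fell, the GABA-B subunit Gabbr1 (-0.63 ± 0.11). None of 12 voltage-gated channel and pump genes passed, though 11 of the 12 changes were negative (median -0.28).

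Cell type markers were read beside these groups, and some genes belong to both. Neuron markers, which check the culture's label, were bright in the controls, summing to 46367 and 44224 over 13 genes, and glial markers were present as well, with astrocyte and radial glia markers at 29634 and 21747 over 12 genes. Under lactacystin the neuron sum was 31612, 31035 and 38559, below both controls, and 3 of the 13 genes fell (Stmn2, Gap43 and Snap25, median -0.40). All 3 are also among the synaptic or axon falls above, so they are not separate evidence. The astrocyte sum was 29176, 35708 and 34407, which overlapped the controls, and 5 of the 12 genes rose (median 0.58). The part of a shift in cell types in the neuronal and glial changes was not tested.

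Gfap, the intermediate filament of reactive astrocytes, read 334 and 264 in the controls and 863, 795 and 864 under lactacystin (1.40 ± 0.15, adjusted p = 0.000328). The lactacystin arrays lay close together above the controls, and the other probe set stood at 0.77 and did not pass. Nestin, Nes, the filament of neural precursors, read 1081 and 1324 against 2580, 2392 and 2113 (0.94 ± 0.13), and clusterin, Clu, rose by 1.00 ± 0.12. Gja1, the astrocyte gap junction protein, rose by 0.90 and Ntsr2 by 0.87, with adjusted p of 0.110 and 0.113 without control replicate 2. Apoe (0.61), Slc1a2 (0.56), Aqp4 (0.49), Id3 (0.47), Glul (0.37), Fabp7 (0.062) and Vim (-0.014) did not pass. At 24 h Gfap had been at -0.64.

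Of 11 microglia and macrophage markers 3 rose: Cd68 (1.47 ± 0.27), Tyrobp (1.04 ± 0.27) and Ctss (0.76 ± 0.17). Of these 1 was called without control replicate 1 and none without control replicate 2. The groups overlapped in Tyrobp and Ctss, and Ctss is also among the lysosome rises above. Cd68, a lysosomal protein of phagocytes, read 214 and 126 in the controls and 403, 727 and 412 under lactacystin, with no overlap. The markers summed to 1802 and 994 in the controls and to 1514, 2200 and 2545 under lactacystin, which overlapped, and 6 of the 17 on both designs were too dim to be tested. These sums stand beside the lysosomal and immune rises above, and their part in those rises was not tested.

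Among 11 fibroblast, mural and meningeal markers, Acta2 and Tagln rose, and both also belong to the actin list. The collagens Col1a1 (0.40) and Col3a1 (0.045) and the proteoglycans Dcn (-0.25) and Lum (0.057) did not pass. The sum of these markers was 4074 and 4182 in the controls and 6515, 5226 and 6617 under lactacystin, with no overlap. Without Acta2 and Tagln the sum of the other 9 was 3554 and 3658 in the controls and 3882, 3741 and 3607 under lactacystin, and the groups overlapped. This sum without both genes was added after the values were seen. None of the 3 oligodendrocyte, 3 endothelial and 2 erythroid markers that could be tested passed.

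None of the 42 listed respiratory chain and ATP synthase genes that were tested passed at 48 h (median 0.067), nor did any of 14 genes of glycolysis and glucose transport (median -0.035). Of 24 cytosolic ribosomal protein genes 2 rose, Rps19 (0.77) and Rpl13a (0.54), and neither did without control replicate 1 (adjusted p = 0.179 and 0.135), without control replicate 2 (0.114 and 0.177) or under median scaling.

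Outside the lists, the largest rise of any probe set was in one that the annotation used here does not pair with a gene, which read 430 and 290 in the controls and 2599, 3312 and 3286 under lactacystin (3.12 ± 0.21, adjusted p = 1.53e-05). Cox6b2, a subunit of cytochrome c oxidase, read 161 and 105 against 779, 1021 and 1355 (2.86 ± 0.30, adjusted p = 0.000328), and its brighter probe set rose by 1.59. At 24 h the first of these changes was 0.30 and did not pass. Both probe sets of Cox6b2 have few unique probes by their names, so that related genes may add to the signal. Emp1, a membrane protein of epithelia, read 176 and 191 in the controls and 732, 796 and 930 under lactacystin (2.05 ± 0.18, adjusted p = 0.000128). Rnh1, the ribonuclease inhibitor, read 40.5 and 98.7 against 354, 419 and 288 (1.96 ± 0.28, adjusted p = 0.00166). Both stood apart from the controls and kept their calls with either left out. Mmp12, a macrophage elastase, rose by 1.99 ± 0.55 (adjusted p = 0.0401), from 139 and 40.7 to 158, 530 and 714, where lactacystin replicate 1 hardly exceeded control replicate 1. It had adjusted p = 0.0765 without control replicate 1 and 0.404 without control replicate 2.

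Among falls outside the lists, Nnmt, a nicotinamide methyltransferase, read 204 and 79.8 in the controls and 15.1, 31.3 and 53.7 under lactacystin (-1.29 ± 0.28, adjusted p = 0.0148). The nucleoside transporter Slc29a2 (-1.18) and the mTORC2-associated gene Prr5 (-1.15) fell too. Without control replicate 1 these had adjusted p of 0.156, 0.226 and 0.131, and without control replicate 2 Slc29a2 and Prr5 had 0.0763 and 0.282.

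In the 24 h comparison, which had its own controls, 1038 of the 6984 probe sets were called, against 722 at 48 h. Of these, 316 were called at both times in the same direction and 12 in opposite directions. A further 394 were called at 48 h alone and 710 at 24 h alone. Cholesterol synthesis (24 h median -1.55) and the neuronal lists were low at both times. The proteasome, heat shock and NRF2 lists had 24 h medians of 0.89, 0.53 and 1.00 for the core, chaperones and antioxidant genes, against 0.10, -0.082 and 0.31 at 48 h. Astrocyte markers (-0.21 at 24 h), microglia markers (-0.092) and the mitosis list (-0.043) stood higher at 48 h. These list medians are descriptions, and the difference between the times was tested only per probe set, where 86 passed. Of the 722 probe sets called at 48 h, 28 passed that test. A call at 48 h alone is thus not by itself a difference between the times.

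**Figure D4:**
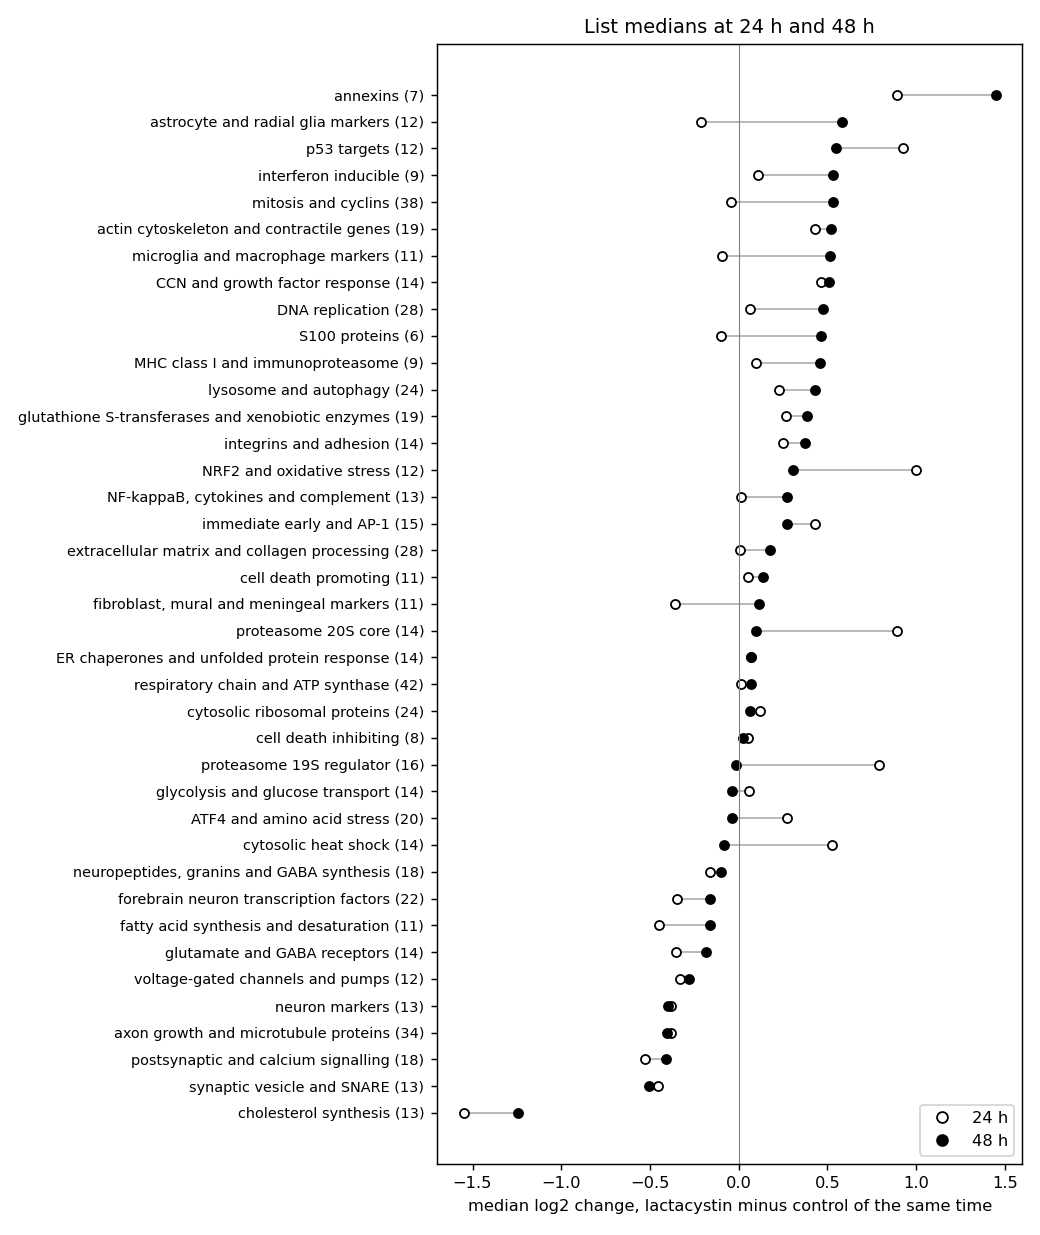
Median log2 change of each gene list at 24 h (open circles) and 48 h (filled circles), each against the controls of the same time, with the number of tested members in parentheses. The proteasome 20S core moved from 0.89 to 0.10 and the astrocyte and radial glia markers from -0.21 to 0.58, while cholesterol synthesis was at -1.55 and -1.24.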

How the data were processed

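The deposited values are intensities, 1 linear signal per probe set, made with MAS5 per the submitters' processing notes, which give no version. The 10043 probe sets of U74A are all among the 12488 of U74Av2. Left out were 66 control probe sets, and detection calls were not used. The number of arrays limits the precision.

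Each array was scaled to a 2% trimmed mean of 500, 32 was added and log2 taken. This damps changes at low signal, and between 19.9% and 27.8% of signals on an array were under 32. The dimmest 30% of probe sets (mean signal under 54.8 over all arrays) were left out. Lactacystin arrays of both times enter this mean, so a gene dim in the controls could be tested because it rose. Ifi202b, Fosl1, Nqo1 and Anxa1 are examples, with every control array under this limit. The shares of rises, in the lists and over all genes, can be raised in this way. All 10 arrays, in 4 groups of agent and time with array design as covariate (5 residual degrees of freedom), were fitted with limma 3.58.1 (eBayes with trend) in R 4.3.3. Its two-sided p-values were adjusted by Benjamini-Hochberg over 6984 probe sets. The fit was tested on simulated data. Gene symbols came from the platform annotation and were brought up to date by Entrez identifier in a RefSeq table (GRCm38.p6), and 8724 shared probe sets carried 1 symbol. Promoter windows matched 4471 of 5541 tested genes by symbol.

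The members and gene lists were chosen with earlier results of these data known. Named genes were the 15 largest rises and 15 largest falls with the same sign in both designs, the 10 smallest p, up to 5 members per list with the largest change, and all members of lists with 3 or fewer tested. Other genes were named after their values were seen. Alternatives were other pseudocounts, scalings, filters, variance models, subsets of arrays, the replicate number as a block and each array left out.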

Additional observations from a re-analysis of the deposited data

Results flagged for a closer look

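The effect of lactacystin at 48 h differed from that at 24 h, by limma's test of the difference, for 86 probe sets (1132 at an unadjusted p under 0.05). Among the genes named here, the difference (48 h minus 24 h, log2) was positive for the astrocyte water channel Aqp4 (2.38), Gfap (2.04) and the helicase subunit Mcm4 (0.78). It was negative for Hspa1a (-2.74), the immediate early genes Ier3 (-2.07) and Fosl1 (-1.95), the ubiquitin receptor Sqstm1 (-1.35), Hspe1 (-0.78) and the proteasome subunits Psmb2 (-1.39), Psmb3 (-1.30), Psmc3 (-1.13) and Psmd7 (-1.08). Of these, Gfap, Mcm4, Fosl1 and Hspe1 were called at 48 h itself.

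Probe sets of U74Av2 without a counterpart on U74A gave 69 calls at 48 h (44 higher, 25 lower) of 1426 tested. They rest on 1 control array and 2 lactacystin arrays at that time, with 2 residual degrees of freedom.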

How the results depend on the processing

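The number of called probe sets, 722, was 110 without the design covariate, 388 on the U74Av2 arrays alone, 440 on the arrays of 48 h alone, and 209 to 826 with 1 array left out. Under the other scalings, pseudocounts, filters and variance models it was 498 to 923. Deviations of same-numbered arrays from their group means followed the array design (control and lactacystin replicate 1 at 48 h, r = -0.61). Array design had not been removed from them, so they cannot tell whether replicate numbers pair the samples. With the replicate number as a block there were 536 calls.

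List medians are given here relative to the median of all genes. On the U74Av2 arrays alone they were 1.83 for metallothioneins, 0.75 for astrocyte markers, 0.65 for p53 targets, 0.59 for xenobiotic enzymes, 0.58 for actin genes, 0.28 for matrix genes, 0.22 for mitosis, -0.22 for ATF4 genes, -0.32 for fatty acid synthesis and -0.61 for postsynaptic genes. With the lowest 50% of probe sets left out, astrocyte markers were at 0.73, matrix genes at 0.32 and cholesterol synthesis at -1.42. Quantile normalization gave -1.14 for cholesterol and -0.28 for fatty acid synthesis, which was at -0.35 without the design covariate. A pseudocount of 64 gave 1.02 for annexins, and the replicate block 0.70 for astrocyte markers.

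With 1 array left out the medians ran from 1.39 to 1.86 for metallothioneins, 1.08 to 1.46 for annexins, 0.42 to 0.72 for astrocyte markers, 0.36 to 0.59 for p53 targets, 0.44 to 0.60 for actin genes, 0.28 to 0.65 for mitosis, 0.33 to 0.53 for DNA replication, 0.24 to 0.47 for integrins, 0.16 to 0.50 for xenobiotic enzymes and 0.14 to 0.31 for matrix genes. On the negative side they ran from -1.47 to -1.20 for cholesterol synthesis, -0.58 to -0.35 for postsynaptic genes, -0.57 to -0.41 for axon genes, -0.40 to -0.030 for fatty acid synthesis and -0.18 to -0.053 for ATF4 genes. The cause of these shifts was not tested.

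Of the 123 called genes followed, 36 kept their call in every setting other than the omission of an array, 33 also in every omission, and 0 changed direction. Psmc3, not called, went to -0.0095 under median scaling. With 2 control arrays and 1 of each design, signals near the pseudocount cannot be resolved, nor can changes under several times the median standard error of 0.165. Hspe1, at 0.34 ± 0.10, only just passed (limma adjusted p = 0.0469).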

Other observations

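The probe sets found on U74Av2 alone were read at 48 h in control replicate 2 and lactacystin replicates 1 and 2. With 1 control array at each time, the spread in this fit came from the pairs of lactacystin arrays at 24 and 48 h, with 2 residual degrees of freedom, and the spread between controls was not measured. In sterol synthesis, Mvd, which makes isopentenyl diphosphate, read 1065 in the control and 247 and 210 under lactacystin (-2.08 ± 0.17, limma adjusted p = 0.00418), and the sterol oxidase Msmo1 read 1324 against 334 and 384 (-1.80 ± 0.15). A further probe set of Fdps read 7307 against 1694 and 1797. The antioxidant enzyme Hmox1, which degrades heme, read 461 against 1293 and 2131 (1.78 ± 0.27, adjusted p = 0.0223), and Gclm, a subunit of the enzyme that starts glutathione synthesis, read 246 against 508 and 472 (0.91 ± 0.14).

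Ahnak, a large scaffold protein, read 108 against 597 and 520, and moesin, Msn, 362 against 1179 and 2028. Yap1, a coactivator for which Ccn1 and Ccn2 are known targets, read 196 against 497 and 537 (1.26 ± 0.16, adjusted p = 0.0165), and the small chaperone Cryab read 74.2 against 260 and 294. Ifitm3, an interferon-inducible membrane protein, read 142 against 570 and 952. The neuronal tubulin Tubb3 read 9705 against 6328 and 6246 (-0.62 ± 0.09, adjusted p = 0.0223). These genes were chosen after their values were seen.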
